A study of Mus musculus with 227 samples.

Results

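Nilotinib is a small-molecule inhibitor of tyrosine kinases, developed against the ABL kinase. One library came from a primary mouse cerebrocortical culture exposed to Nilotinib, and it was chosen by the agent named in its label, out of the libraries of 218 drugs and 9 vehicles. It was set against all 9 libraries labelled Vehicle and, separately, against the 30 other drug libraries that carry the same run code in their names. Fenofibrate, a PPARα agonist with 1 library, served as a further comparison drug, chosen because it also gave many calls in earlier results of these data. All cultures came from cerebral cortices of F1 embryos (FVB/N mothers, C3B6F1 fathers) at embryonic day 16.5, for which the labels name no engineered allele, and were kept in culture for 21 days. The Nilotinib culture received the drug for 8 h, and each of the 30 run-code cultures received a different drug for 8 h. The vehicle cultures received DMSO without a drug for 8 h. All cultures, drug and vehicle alike, are recorded with 0.2% DMSO. The sources used here give no dose. A culture of this kind mixes neurons, astrocytes, cells of the oligodendrocyte lineage and few microglia, and whether the vehicle wells came from separate preparations is not stated, so p-values measure the spread between these libraries.

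Nilotinib blocks the kinase activity of ABL1, ABL2, the stem cell factor receptor KIT, the platelet-derived growth factor (PDGF) receptors and the collagen receptors DDR1 and DDR2. In brain cultures, PDGF receptor alpha marks oligodendrocyte precursors, which divide in response to PDGF. Both NF-kB and ATF4 responses matter for the results. NF-kB is a family of transcription factors that is held inactive by IkB proteins and induces chemokines when released. ATF4 is a factor whose translation rises when the initiation factor eIF2 is phosphorylated and which induces genes of amino acid supply and cell death.

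The Nilotinib library held 40.1 M counted reads with 3.78% on mitochondrial genes, the vehicles 31.4 M to 43.8 M with 3.099 to 3.91%, and the run-code drugs 31.2 M to 53.3 M with 3.421 to 4.36%. Levels are given as CPM, counts scaled to the total of the library. Each test used edgeR's quasi-likelihood test with an adjusted p under 0.05 as threshold, and "rose" and "fell" are used only of genes past it. Nilotinib has 1 library, which was assumed to vary like the libraries it is set against. Vehicle replicate 5 is the only vehicle of that run code, so in the comparison with vehicles the drug cannot be told apart from its run code, whereas the comparison with the 30 drugs stays within the run code. Neurons, astrocytes and oligodendrocyte precursors had their defining markers. Of 10 endothelial markers, 3 (Cldn5, Ly6c1 and Emcn) were at 0 in the Nilotinib library, as was 1 of 12 mural cell markers (Higd1b). The other members of both lists had reads there. In the Nilotinib library the endothelial markers summed to a level within the vehicle range, and the mural cell markers to a level below it.

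Against the 9 vehicles, 1891 of 15474 genes tested (12.2%) passed, 959 higher in Nilotinib (6.2%) and 932 lower (6.02%). Scaling by library totals alone changed that split to 1251 higher and 620 lower. The median log2 fold change was 0.63 among the genes that rose and -0.59 among those that fell, and 221 rises and 153 falls exceeded 2-fold. Against the 30 drugs of the run code, 3039 of 15808 genes (19.2%) passed, 1861 higher (11.8%) and 1178 lower (7.45%), and library totals alone gave 2341 higher and 441 lower. Every count of list or family members below is to be read beside these shares of all genes. They were 6.2% higher and 6.02% lower against vehicles, and 11.8% higher and 7.45% lower against the run-code drugs. The median of all genes was -0.01 against vehicles and -0.02 against the run-code drugs. For 760 of the 959 rises (79.2%), the Nilotinib library was the highest of all libraries, and for 423 of the 932 falls (45.4%) it was the lowest. The number of genes past the threshold was 1046 without vehicle replicate 5, 1163 without replicate 9 and between 1321 and 2188 without any other single vehicle.

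**Figure D1:**
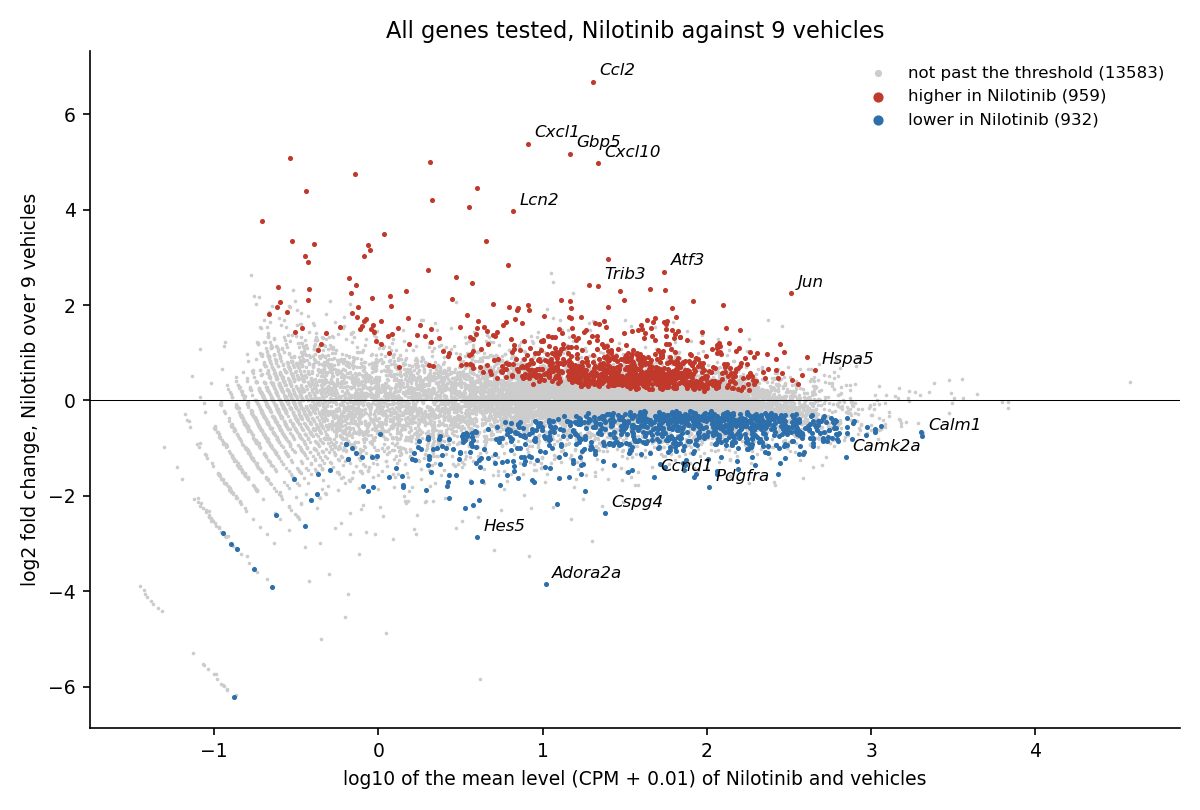
Log2 fold change of Nilotinib over 9 vehicles (vertical axis) against the log10 of the mean level of Nilotinib and vehicles (CPM plus 0.01, horizontal axis) for 15474 genes, with the 959 rises in red, the 932 falls in blue and 16 genes named. Ccl2 has the largest rise at 6.69, and the genes that fell extend to higher expression levels than those that rose, with a median vehicle level of 73.4 CPM for falls and 22.4 CPM for rises.

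The largest rises were chemokines and other targets of NF-kB. Of 21 genes on a list of NF-kB inflammation genes, 16 were tested against vehicles and 14 rose, where 6.2% of all genes did so. The list median was 2.47, against -0.01 for all genes. A gene was tested if at least 1 library reached the filter level of 0.26 CPM, so a gene high only in Nilotinib could enter. The vehicles alone would have kept 8 of the 16, of which 7 rose, with a median of 1.46, so the count over all 16 is no support for a shift of the list. The 8 others were Ccl2, Cxcl1, Cxcl2, Il6, Lcn2, Ccl7, Birc3 and Il1b, of which Il6 reached the filter level in 0 vehicles and the rest in 1 to 8. Against the run-code drugs, 14 of 17 tested members rose. Here too a gene high only in Nilotinib could enter, so this count is no support either.

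Ccl2, the chemokine that attracts monocytes (ENSMUSG00000035385.5, chromosome 11, 82035571 to 82037453, mm10), had 40.4 CPM in the Nilotinib library. In vehicles its lowest, median and highest levels were 0.131, 0.311 and 1.05 CPM, and in the run-code drugs 0, 0.406 and 1.33 CPM. The Nilotinib value lay far above every vehicle and was the highest of all libraries, of which the next, Cetirizine 2HCl, had 1.92 CPM. Its log2 fold change over vehicles was 6.69 ± 0.45 (SE; edgeR adjusted p = 3.61e-05). Per length, it reached 49.7 RPKM in Nilotinib, against 0.457 ± 0.353 RPKM in vehicles (SD, n = 9). Cxcl1, a chemokine for neutrophils (chromosome 5, 90891241 to 90893115), had 16.0 CPM in Nilotinib, against 0.145, 0.388 and 0.701 CPM (lowest, median and highest) in vehicles and at most 0.732 CPM in the run-code drugs. It rose by 5.39 ± 0.37 (edgeR adjusted p = 3.91e-05), with no overlap between Nilotinib and any other library. Cxcl10, a chemokine for T cells that NF-kB and interferons both induce (chromosome 5, 92346638 to 92348889), had 42.1 CPM in Nilotinib, against 0.419, 1.152 and 3.471 CPM in vehicles and 0.308 to 5.92 CPM in the run-code drugs. It rose by 4.98 ± 0.55 (edgeR adjusted p = 0.000673).

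**Figure D2:**
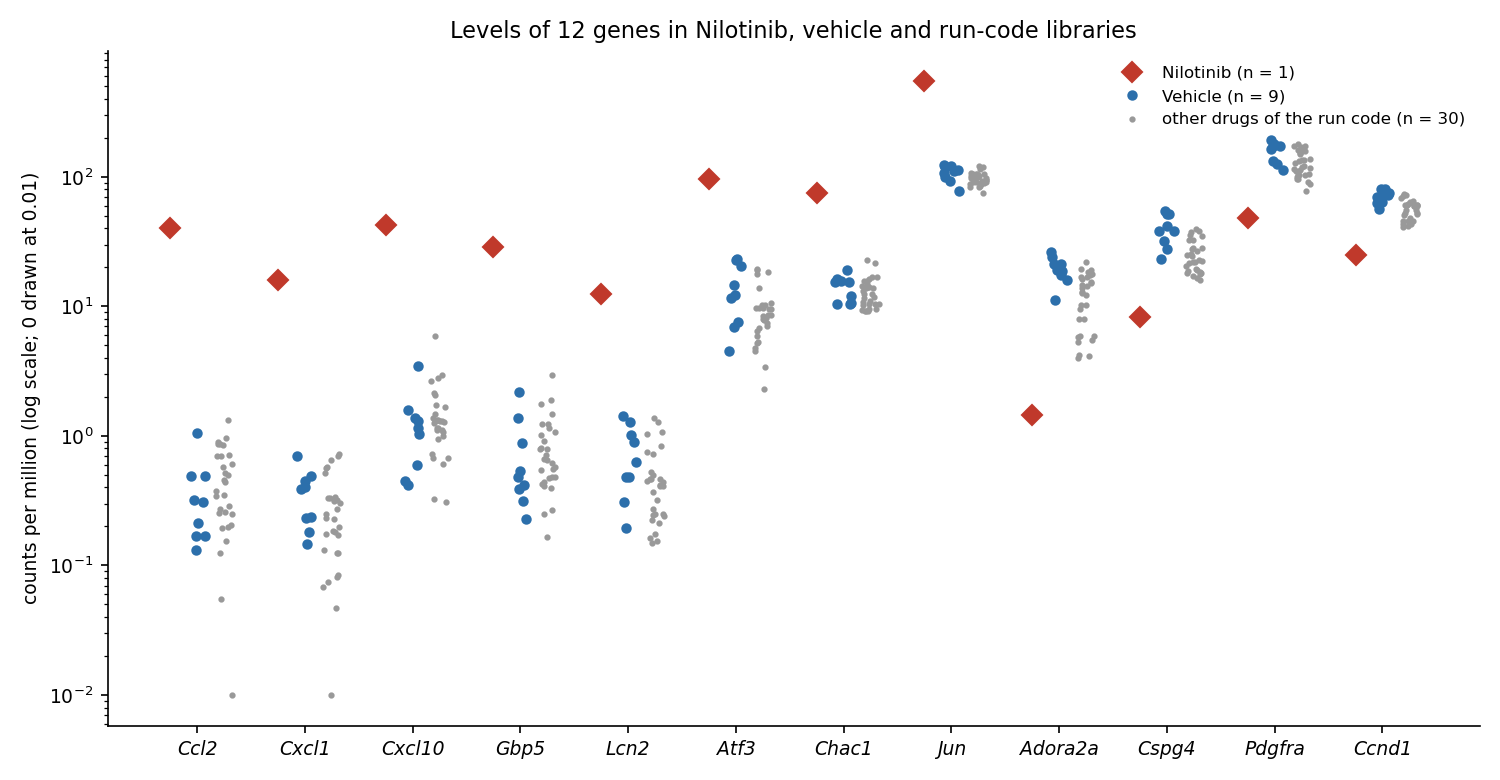
Level of 12 genes in CPM on a log axis (values of 0 drawn at 0.01), with the Nilotinib library as a red diamond, each of 9 vehicles as a blue point and each of 30 run-code drugs as a grey point, from left to right within a gene. The diamond lies above all points for the first 8 genes, from Ccl2 (40.4 CPM) to Jun (545.8 CPM), and below all points for the last 4, from Adora2a (1.45 CPM) to Ccnd1 (24.7 CPM).

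Further secreted factors of the same list were low in every vehicle. Cxcl2, which also attracts neutrophils, had 3.993 CPM in Nilotinib, against 0 to 0.478 CPM in vehicles (log2 fold change 5.01 ± 0.68; edgeR adjusted p = 0.00189). The cytokine Il6 had 1.37 CPM in Nilotinib, against 0 to 0.154 CPM in vehicles (4.74 ± 0.61; edgeR adjusted p = 0.00146). The iron-binding protein Lcn2, made by reactive astrocytes, had 12.5 CPM in Nilotinib, against 0.194, 0.629 and 1.43 CPM in vehicles (3.97 ± 0.54; edgeR adjusted p = 0.00192), and was higher than in all other libraries, of which Betamethasone was next with 8.62 CPM. Ccl7, a chemokine gene beside Ccl2, had 1.55 CPM in Nilotinib, against 0 to 0.446 CPM in vehicles (3.27 ± 0.85; edgeR adjusted p = 0.0341, and at most 0.0628 without vehicle replicate 4, 5, 6 or 9). Not every inflammatory gene moved. Il1b was at 0.299 CPM in Nilotinib, against 0.103 to 0.419 CPM in vehicles (edgeR adjusted p = 0.836), and Vcam1 at 103.5 CPM, against 47.8 to 117.6 CPM (edgeR adjusted p = 0.436). Tnf had 0.225 CPM in Nilotinib and 0 to 0.129 CPM in vehicles and was too low to be tested, as were Ccl3, Ccl4, Ccl5 and Saa3, which had at most 0.225 CPM in Nilotinib.

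Genes of the NF-kB pathway itself also rose. Among the inhibitors, Nfkbia, which encodes IkB alpha, had 60.4 CPM in Nilotinib, against 19.5, 22.5 and 28.4 CPM in vehicles (1.31 ± 0.15; edgeR adjusted p = 0.000945), and Nfkbie, which encodes IkB epsilon, had 11.5 CPM in Nilotinib, against 3.165 to 4.136 CPM (1.624 ± 0.13). Tnfaip3, which encodes the ubiquitin-editing inhibitor A20, had 26.7 CPM in Nilotinib, against a vehicle mean of 7.36 CPM (1.76 ± 0.45; edgeR adjusted p = 0.0326). Subunit genes moved as well, Nfkb1 by 1.58, Rela by 1.345, Relb by 1.339 and Nfkb2 by 1.127 on the log2 scale, each past the threshold, while Rel at 1.02 did not pass against vehicles (edgeR adjusted p = 0.126). Upstream, Ripk2, the kinase that relays NOD receptor signals, had 21.3 CPM in Nilotinib, against 3.71, 4.62 and 5.73 CPM in vehicles (2.103 ± 0.13; edgeR adjusted p = 1.74e-05), and the receptor Tlr2 had 6.69 CPM in Nilotinib, against 0.0786 to 1.115 CPM (4.06 ± 0.64; edgeR adjusted p = 0.00389), and would not have been kept in the test by the vehicles alone. Of the remaining targets, the apoptosis inhibitor Birc3 rose by 3.04, the adhesion molecule Icam1 by 2.84 and the atypical IkB protein Nfkbiz by 2.095. Rela, Rel, Nfkbie, Ripk2 and the list members beyond the 6 with the largest change were named after their values were seen.

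A further 4 of the 15 largest rises were low in vehicles, and the vehicles alone would have kept 0 of these 4 in the test, which reached the filter level in 1 to 3 vehicles each. Steap4, a metalloreductase that inflammatory signals induce, had 7.64 CPM in Nilotinib, against 0.0685, 0.0968 and 1.21 CPM (lowest, median and highest) in vehicles (4.46 ± 0.82; edgeR adjusted p = 0.00889). Stx11, a syntaxin of immune cells, had 3.993 CPM in Nilotinib, against 0.0911, 0.169 and 0.360 CPM in vehicles (4.21 ± 0.41; edgeR adjusted p = 0.000343). The matrix protease gene Mmp3 had 1.971 CPM in Nilotinib, against 0 to 0.510 CPM in vehicles (3.50 ± 0.75; edgeR adjusted p = 0.0171). Tmem140, a membrane protein gene, had 1.597 CPM in Nilotinib, against 0.0623 to 0.414 CPM in vehicles (9.51 times the vehicle mean; edgeR adjusted p = 0.00373). The first 3 had their highest level of all libraries in Nilotinib, and Tmem140 was higher in the Fenofibrate library alone, at 5.27 CPM.

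The guanylate-binding proteins, GTPases that act against intracellular pathogens, formed a group that was picked after its values were seen. Of 10 tested, 8 rose against vehicles and 6 against the run-code drugs, also when scaled by library totals alone (8 of 10 against vehicles). The vehicles alone would have kept 4 of the 10 in the test, of which 3 rose, and Gbp5 and Gbp2b were not among them. Gbp5 had 28.5 CPM in Nilotinib, against 0.228, 0.486 and 2.166 CPM in vehicles and at most 2.93 CPM in the run-code drugs (5.176 ± 0.60; edgeR adjusted p = 0.000881). Gbp2b had 8.21 CPM in Nilotinib, against 0.210 to 1.619 CPM in vehicles (3.34 ± 0.59). Gbp11 had 0.250 CPM in Nilotinib and 0.0955 to 0.456 CPM in vehicles and did not pass. Several of these genes are near-identical neighbours, so reads can have been split among them. On the interferon response list, 1 of 18 tested members rose (Cxcl10), with a list median of 0.50. Ifit1 had 2.79 CPM in Nilotinib, against 0.560 to 2.90 CPM in vehicles, so the groups overlapped.

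The sequences just before the starts of 5 genes that rose, 4 of the NF-kB list and Cxcl10 of the interferon list, are shown because they hold matches to the kappa B consensus, the element NF-kB binds. They are the 250 bases before the start in RefSeq (GRCm38.p6), written in the direction of transcription, at chr5:90890995-90891244 for Cxcl1 (plus strand), chr5:90903649-90903898 for Cxcl2 (plus strand), chr5:92348890-92349139 for Cxcl10 (minus strand), chr5:30012864-30013113 for Il6 (plus strand), chr12:55492648-55492897 for Nfkbia (minus strand). Capitals mark the matches on either strand.
Cxcl1: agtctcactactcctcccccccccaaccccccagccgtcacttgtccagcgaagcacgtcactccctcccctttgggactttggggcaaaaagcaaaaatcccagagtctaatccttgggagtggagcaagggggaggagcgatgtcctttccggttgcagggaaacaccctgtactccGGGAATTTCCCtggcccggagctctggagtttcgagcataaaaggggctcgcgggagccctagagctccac
Cxcl2: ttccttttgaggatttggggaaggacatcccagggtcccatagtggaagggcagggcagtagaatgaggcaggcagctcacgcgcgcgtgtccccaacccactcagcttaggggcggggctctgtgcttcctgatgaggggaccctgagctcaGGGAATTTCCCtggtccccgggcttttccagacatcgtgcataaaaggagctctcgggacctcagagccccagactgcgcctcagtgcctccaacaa
Cxcl10: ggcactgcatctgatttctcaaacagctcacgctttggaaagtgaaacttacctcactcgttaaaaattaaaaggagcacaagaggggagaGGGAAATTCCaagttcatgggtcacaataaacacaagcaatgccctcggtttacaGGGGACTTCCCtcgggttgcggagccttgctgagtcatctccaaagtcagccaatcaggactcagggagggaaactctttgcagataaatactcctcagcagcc
Il6: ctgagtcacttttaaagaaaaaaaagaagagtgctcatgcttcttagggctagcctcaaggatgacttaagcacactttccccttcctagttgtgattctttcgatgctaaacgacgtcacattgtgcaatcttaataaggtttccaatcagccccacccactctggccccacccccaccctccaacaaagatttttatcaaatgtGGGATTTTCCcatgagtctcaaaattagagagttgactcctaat
Nfkbia: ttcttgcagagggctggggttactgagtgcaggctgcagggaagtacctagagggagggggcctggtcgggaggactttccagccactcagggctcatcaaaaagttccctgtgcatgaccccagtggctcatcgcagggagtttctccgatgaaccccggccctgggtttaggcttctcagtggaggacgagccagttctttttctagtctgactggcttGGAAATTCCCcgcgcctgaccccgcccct
In these windows Cxcl1 and Cxcl2 hold the same run of capitals and Cxcl10 holds separate matches. The element starts 44 bases before the start in Il6 and 29 in Nfkbia. The 250 bases before the start of Icam1, Birc3 and Lcn2, which also rose, held 0 matches.

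Of the tested genes, 11295 of 15463 symbols had a RefSeq promoter, in 14487 windows, which unlike the printed sequences also take in bases after the start. The kappa B consensus was searched after the rises had been seen, on both strands, and overlapping matches count once per window. It was found in 8 of 13 windows of the NF-kB list, which does not hold Cxcl10 (61.5%), in 12.3% of the windows of all genes that rose, in 10.9% of those that fell and in 10.6% of all windows. The 13 windows came from 10 genes, and several belong to Nfkb2. A list of NF-kB targets is likely to hold the element whatever the drug, so its share says nothing about Nilotinib.

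Microglia are a known source of such chemokines in brain cultures. The 14 microglia markers summed to 13.9 CPM in Nilotinib, against 8.32 to 37.1 CPM in vehicles and 8.55 to 25.4 CPM in the run-code drugs, and 0 of the 14 passed against vehicles (edgeR; 0 at an unadjusted p under 0.05 and 0 by DESeq2), while 1 rose against the run-code drugs. The vehicles alone would have kept 3 of the 14 in the test. C1qa had 0.699 CPM in Nilotinib, against 0.0524, 0.218 and 5.51 CPM in vehicles, and Cx3cr1 had 0.299 CPM, against 0.0524, 0.218 and 5.1271 CPM. Vehicle replicate 1 stood apart from the other vehicles with the highest levels of these genes and also of Ccl2 and Cxcl10. Without it, 1979 genes passed, and the number of NF-kB list members that rose was 12 to 14 when each vehicle was left out in turn. Members that entered the test through their Nilotinib level are in these counts, so the range is no check on a shift of the list. The astrocyte markers summed to 9814 CPM in Nilotinib, against 7988 to 10982 CPM in vehicles, with 1 of 14 past the threshold, Fgfr3, which fell by 0.65 on the log2 scale (edgeR adjusted p = 0.016, and 0.0533 with library totals alone).

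**Figure D3:**
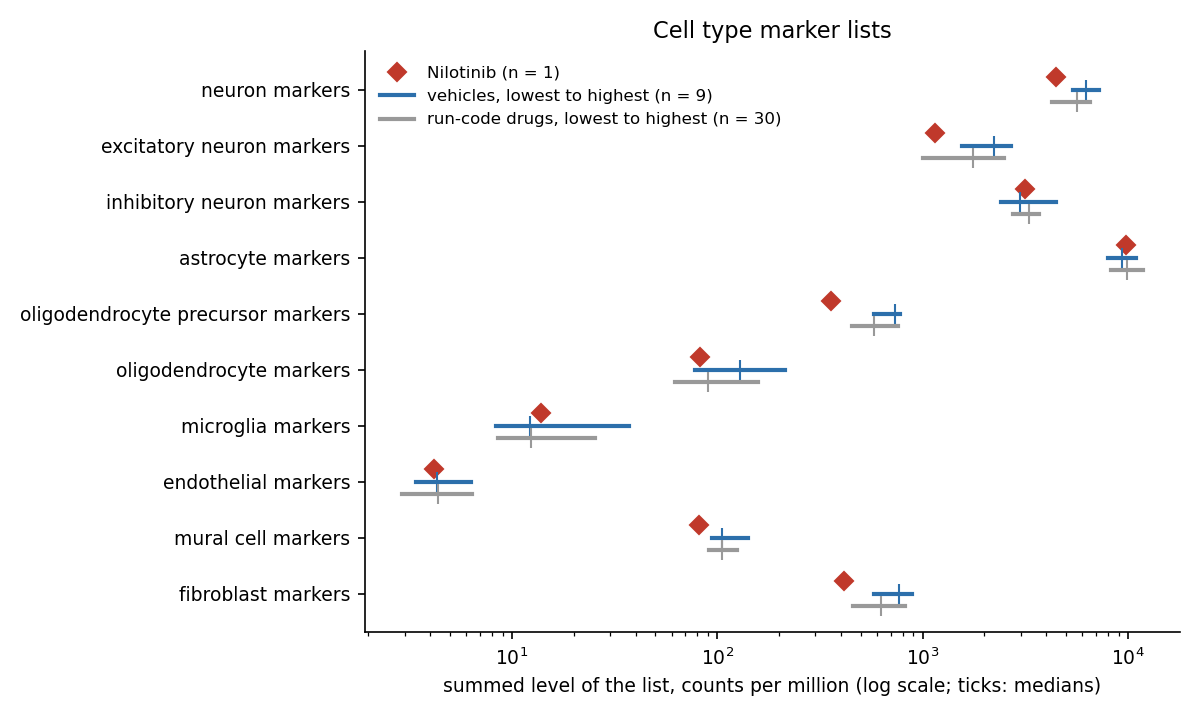
Summed level in CPM (log axis) of 10 cell type marker lists, with Nilotinib as a red diamond, vehicles as a blue line from lowest to highest (n = 9) and run-code drugs as a grey line (n = 30), ticks at the medians. Nilotinib lies below both lines for oligodendrocyte precursor (358.6 CPM), mural (81.2 CPM) and fibroblast markers (414.1 CPM), and within both for microglia markers (13.9 CPM). The lists overlap, as the fibroblast list holds Pdgfra and the mural list holds Cspg4 of the precursor list. Cspg4 had 8.33 CPM in Nilotinib, against 23.3 to 54.2 CPM in vehicles, and was the 1 mural marker that fell.

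Of 39 genes listed for the ATF4 stress response, 37 were tested, 18 rose and 0 fell against vehicles, where 6.2% of all genes rose, with a list median of 0.71. Against the run-code drugs, 23 rose and 0 fell, where 11.8% of all genes rose. Among transcription factors, Atf3, a repressor induced by ATF4, had 96.5 CPM in Nilotinib, against 4.53, 12.3 and 23.4 CPM in vehicles and 2.30 to 19.6 CPM in the run-code drugs (2.704 ± 0.57; edgeR adjusted p = 0.016). Only the Fenofibrate library was higher, at 199.9 CPM. Ddit3, which encodes the pro-apoptotic factor CHOP, had 101.1 CPM in Nilotinib, against 20.2, 28.8 and 36.8 CPM in vehicles (1.76 ± 0.21; edgeR adjusted p = 0.000945). Atf4 itself rose by 1.184 ± 0.16, with 395 CPM in Nilotinib and a vehicle mean of 163 CPM. Among effectors, Chac1, which degrades glutathione, had 75.5 CPM in Nilotinib, against 10.4, 15.4 and 19.1 CPM in vehicles (2.34 ± 0.25; edgeR adjusted p = 0.000559), the highest of all libraries. The pseudokinase Trib3 had 36.9 CPM in Nilotinib, against a median of 5.99 and a highest of 13.8 CPM in vehicles (2.408 ± 0.41; edgeR adjusted p = 0.00611). Ppp1r15a, the phosphatase subunit that reverses eIF2 phosphorylation, had 88.5 CPM in Nilotinib, against 19.6, 26.4 and 33.5 CPM (1.6603 ± 0.18; edgeR adjusted p = 0.000556). Eif2ak3, the eIF2 kinase PERK, had 79.8 CPM in Nilotinib, against 29.6 to 35.2 CPM in vehicles (1.1745 ± 0.09), and was named after its values were seen.

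Members for amino acid supply moved unevenly. The mitochondrial folate enzyme Mthfd2 rose by 1.65 and the cationic amino acid transporter Slc7a1 by 1.01. Asns, which makes asparagine, had 148.2 CPM in Nilotinib, against 98.8 to 132.2 CPM in vehicles, above all of them, yet did not pass (0.29 ± 0.18; edgeR adjusted p = 0.317). Psat1 of serine synthesis had 272.3 CPM in Nilotinib, within the vehicle range of 147.8 to 291.6 CPM. The cystine transporter Slc7a11 had 432.8 CPM in Nilotinib, against 39.8, 85.6 and 288 CPM in vehicles, the highest of all libraries ahead of Quercetin at 430.7 CPM, and did not pass either (1.57 ± 0.83; edgeR adjusted p = 0.232). Of 19 aminoacyl-tRNA synthetases, 6 rose against vehicles and 11 against the run-code drugs, led by Cars with 104.0 CPM in Nilotinib, against 50.3 to 64.1 CPM in vehicles (0.75 ± 0.10; edgeR adjusted p = 0.00141).

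Of 23 endoplasmic reticulum chaperones and XBP1 or ATF6 targets, 8 rose against vehicles, where 6.2% of all genes rose, with a median of 0.28. Against the run-code drugs 12 rose, where 11.8% of all genes did so. Herpud1, which serves degradation of misfolded proteins, had 99.6 CPM in Nilotinib, against 30.6, 32.5 and 41.6 CPM in vehicles (1.45 ± 0.11; edgeR adjusted p = 6.47e-05). Hspa5, the chaperone BiP, had 567.6 CPM in Nilotinib, against 309.1, 340.7 and 367.4 CPM (0.64 ± 0.08; edgeR adjusted p = 0.00134). The chaperone Hsp90b1 had 392.2 CPM in Nilotinib, within the vehicle range of 364.3 to 437.1 CPM. Where 6.2% of all genes rose and 6.02% fell against vehicles, 3 of 21 heat shock genes rose and 1 fell. These were Hspa1a (1.38 ± 0.19) and Hspa1b (1.02 ± 0.20), near-identical copies whose reads can be split between them, and Dnajb1 (0.36 ± 0.10; edgeR adjusted p = 0.0465, and at most 0.0780 without vehicle replicate 1, 3, 4, 5, 8 or 9), while Ahsa1 fell by 0.25 on the log2 scale (edgeR adjusted p = 0.0327, against 0.192 with library totals alone, 0.0521 over the run-code drugs and at most 0.0779 without vehicle replicate 5, 6, 7 or 9).

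Promoters of 3 of these genes are shown with the ATF4 element TGATGNAA, in capitals, which here reads TTGCATCA on the printed strand, the reverse complement. The windows are the 250 bases before the RefSeq start (GRCm38.p6) at chr1:191183334-191183583 for Atf3 (minus strand), chr2:119350992-119351241 for Chac1 (plus strand), chr8:94386179-94386428 for Herpud1 (plus strand).
Atf3: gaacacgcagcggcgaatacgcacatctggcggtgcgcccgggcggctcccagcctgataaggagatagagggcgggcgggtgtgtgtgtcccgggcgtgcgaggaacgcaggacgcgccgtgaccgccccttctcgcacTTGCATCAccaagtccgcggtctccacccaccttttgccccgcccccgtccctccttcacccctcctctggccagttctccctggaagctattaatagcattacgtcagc
Chac1: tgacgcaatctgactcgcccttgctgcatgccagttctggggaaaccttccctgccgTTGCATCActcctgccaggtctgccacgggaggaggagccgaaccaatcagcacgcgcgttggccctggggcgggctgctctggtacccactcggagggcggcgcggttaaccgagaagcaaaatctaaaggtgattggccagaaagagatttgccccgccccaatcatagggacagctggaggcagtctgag
Herpud1: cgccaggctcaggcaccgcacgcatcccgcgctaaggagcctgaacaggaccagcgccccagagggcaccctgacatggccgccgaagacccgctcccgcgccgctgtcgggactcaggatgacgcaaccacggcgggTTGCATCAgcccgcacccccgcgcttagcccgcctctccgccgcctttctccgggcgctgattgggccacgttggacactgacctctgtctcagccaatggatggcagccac
The element starts 110 bases before the start in Atf3, 193 in Chac1 and 112 in Herpud1. The 250 bases before the start of Trib3, Ddit3, Ppp1r15a and Atf4 held 0 matches. Shares were counted on both strands in windows that also take in bases after the start. The element was in 11 of 42 windows of the ATF4 list (26.2%) and in 6 of 21 windows of its members that rose. A list of ATF4 response genes is likely to hold it whatever the drug, so its share says nothing about Nilotinib. The ATF4 element was in 40 of 957 windows (4.2%) of all genes that rose, 2.18% of those that fell and 2.24% of all windows. The cyclic AMP response element TGACGTCA, a palindrome that also binds ATF and AP-1 proteins, was in 6.06% of rises, 1.63% of falls and 2.99% of all windows, and the AP-1 site TGACTCA in 5.43%, 2.61% and 3.797%. Shares for rises, falls and all windows, in this order, were 6.48%, 4.575% and 5.791% for the heat shock element GAANNTTC. They were 14.7%, 13.0% and 13.9% for the antioxidant element TGACNNNGC, 1.57%, 0.980% and 0.890% for the unfolded protein response element TGACGTGG, and 0.627%, 0.763% and 0.614% for the sterol element TCACCCCAC.

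**Figure D4:**
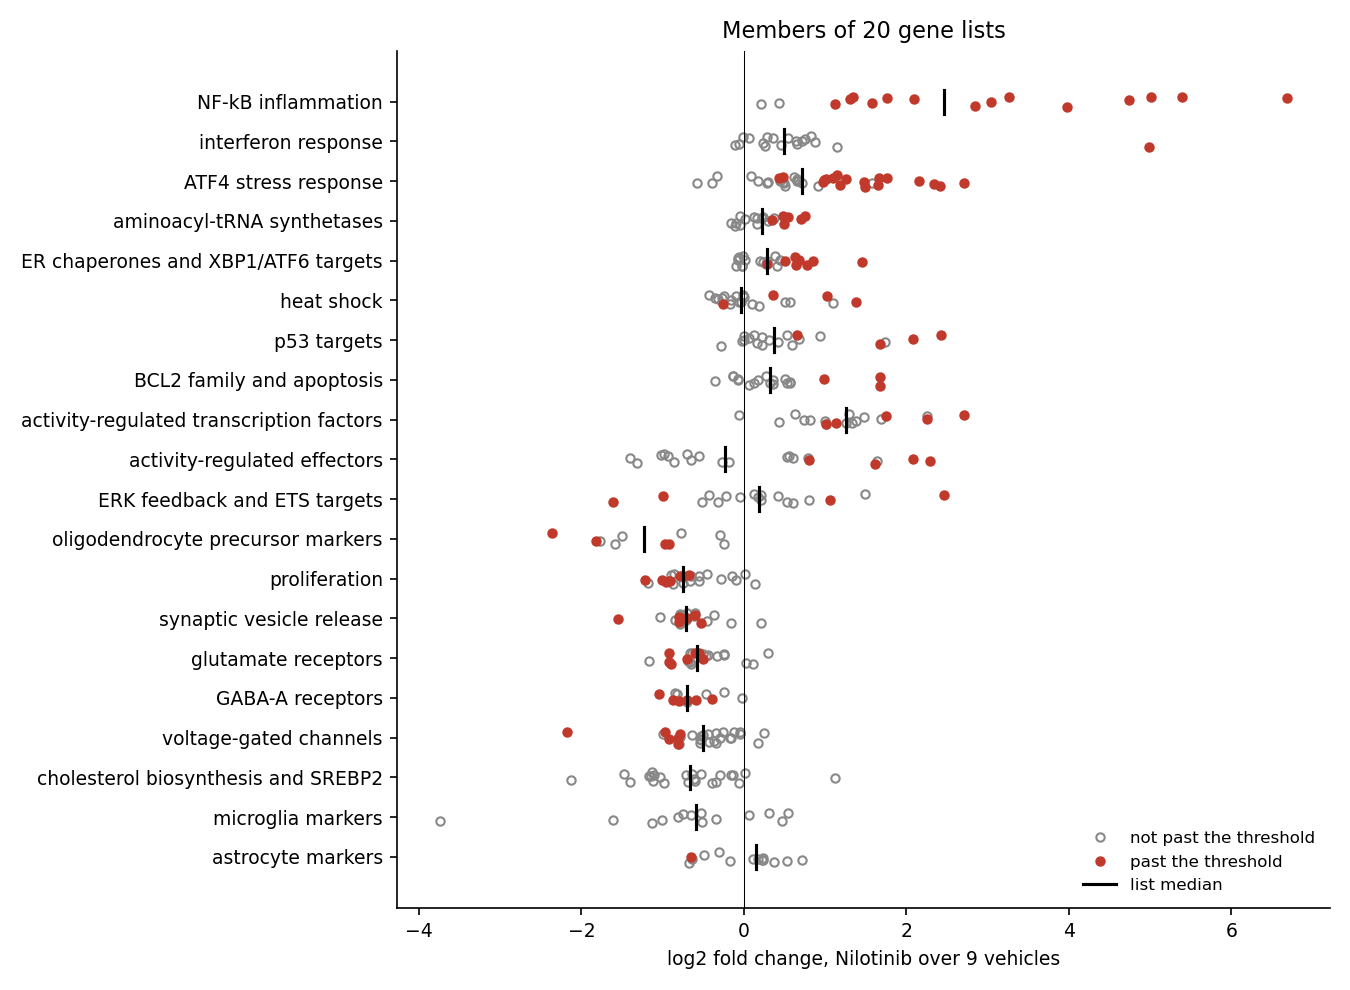
Log2 fold change of Nilotinib over 9 vehicles for each tested member of 20 gene lists, red where past the threshold and open where not, with the list median as a black bar. NF-kB members reach 6.69 and have a median of 2.47, the ATF4 list has a median of 0.71, and the synaptic, receptor and channel lists lie mostly below 0. The vehicles alone would have kept 8 of the 16 NF-kB members in the test, with a median of 1.46.

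Jun, a subunit of AP-1 that JNK kinases activate, had 545.8 CPM in Nilotinib, against 78.2, 110.2 and 123.5 CPM in vehicles and 75.3 to 120.7 CPM in the run-code drugs (2.254 ± 0.17; edgeR adjusted p = 5.48e-05). It was the highest of all libraries, followed by Fenofibrate at 468.5 CPM. Of 20 genes on the axon injury and JNK list, 6 rose, among them Sox11, a factor of axon growth, with 195.2 CPM in Nilotinib, against 103.6 to 130.4 CPM in vehicles (0.68 ± 0.15; edgeR adjusted p = 0.0197). Of 20 p53 targets, 4 rose, where 6.2% of all genes did so. Gadd45a, a growth arrest gene that ATF4 also induces, had 32.7 CPM in Nilotinib, against 3.96, 5.301 and 9.22 CPM in vehicles (2.43 ± 0.25; edgeR adjusted p = 0.000442). Btg2, an antiproliferative gene, had 134.0 CPM in Nilotinib, against 27.3, 29.1 and 35.1 CPM (2.08 ± 0.09; edgeR adjusted p = 4.96e-06), and Mdm2, the p53 ubiquitin ligase, rose by 0.66. Cdkn1a, the p53 target p21, had 107.4 CPM in Nilotinib, within the vehicle range of 48.0 to 130.0 CPM. Of 19 tested genes of the BCL2 family and apoptosis, the BH3-only killers Bbc3 (1.68 ± 0.24) and Bcl2l11 (1.67 ± 0.19) and the survival factor Mcl1 (0.99 ± 0.19) rose.

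Activity-regulated genes, which neurons switch on after firing, gave counts that depended on what Nilotinib was set against. Of 19 transcription factors, 5 rose against vehicles (median 1.251) and 16 against the run-code drugs (median 2.166). The 5 were Atf3, Jun, Ier2, Crem and Jund. Fos had 168.8 CPM in Nilotinib, against 16.4, 53.2 and 133.2 CPM in vehicles and 11.4, 29.6 and 110.2 CPM in the run-code drugs, with a log2 fold change of 1.29 ± 0.92 over vehicles (edgeR adjusted p = 0.376) and 2.166 ± 0.53 over the drugs (edgeR adjusted p = 0.00319). Npas4, which follows calcium entry, had 120.7 CPM in Nilotinib, inside the vehicle range of 8.59 to 141.4 CPM. Egr1 had 366.9 CPM in Nilotinib, the highest of all libraries, against 53.8 to 168.2 CPM in vehicles, and did not pass against them (1.69 ± 0.55; edgeR adjusted p = 0.0692). Library totals alone or DESeq2 gave 8 rises among the 19, and limma with a term for run code gave 14. That limma fit sets Nilotinib against the other libraries of its run code, the 30 drugs and 1 vehicle. Here and below it therefore largely repeats the comparison with the run-code drugs. Of 20 activity-regulated effectors, 4 rose against vehicles and 8 against the drugs. Bdnf had 48.2 CPM in Nilotinib, within the vehicle range of 19.7 to 198.0 CPM.

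Against vehicles, genes that report on ERK signalling moved in both directions, with 2 of 18 rising and 2 falling, where 6.2% of all genes rose and 6.02% fell. Their median was 0.19. Against the run-code drugs, 8 rose and 1 fell, where 11.8% and 7.45% of all genes did so, with a median of 0.69. They summed to 1015 CPM in Nilotinib, within the 714.8 to 1082 CPM of vehicles and above the 541.8 to 968.5 CPM of the run-code drugs. The AP-1 gene Fosl1 had 6.36 CPM in Nilotinib, against 0.386, 0.952 and 2.826 CPM in vehicles (2.47 ± 0.60; edgeR adjusted p = 0.0276, and 0.0524 without vehicle replicate 5), and Myc rose by 1.05. Ccnd1, which encodes cyclin D1 and drives entry into the cell cycle (chromosome 7, 144929931 to 144939925), had 24.7 CPM in Nilotinib, against 56.8, 72.2 and 81.3 CPM in vehicles and 41.4 to 73.1 CPM in the run-code drugs. It fell by 1.61 ± 0.21 on the log2 scale (edgeR adjusted p = 0.00156) and was the lowest of all libraries. The ETS factor Etv4 fell by 1.00 against vehicles (edgeR adjusted p = 0.0183) but did not pass by limma with a run-code term (adjusted p = 0.0679) or against the run-code drugs (edgeR adjusted p = 0.107). The feedback phosphatase Dusp6 had 45.1 CPM in Nilotinib, within the vehicle range of 15.5 to 70.1 CPM, and the feedback inhibitor Spry4 had 34.2 CPM, within 13.7 to 49.1 CPM.

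Markers of oligodendrocyte precursors were low in the Nilotinib library. Their 10 genes summed to 358.6 CPM in Nilotinib, against 581.3 to 771.9 CPM in vehicles and 454.8 to 759.3 CPM in the run-code drugs. Of the 10, 4 fell and 0 rose against vehicles, where 6.02% of all genes fell, with a median of -1.23, and 5 fell against the run-code drugs. In bulk RNA, fewer cells of a type and less RNA per cell cannot be told apart. Cspg4, which encodes the NG2 proteoglycan (chromosome 9, 56865033 to 56899870), had 8.33 CPM in Nilotinib, against 23.3, 38.4 and 54.2 CPM in vehicles and 15.9 to 39.5 CPM in the run-code drugs (-2.36 ± 0.50; edgeR adjusted p = 0.0166). Pdgfra, the PDGF receptor alpha (chromosome 5, 75152292 to 75198215), had 48.0 CPM in Nilotinib, against 112.7, 172.8 and 191.0 CPM in vehicles and 77.9 to 178.7 CPM in the run-code drugs (-1.82 ± 0.31; edgeR adjusted p = 0.00599). Both were the lowest of all libraries. The lineage factor Olig2 had 47.6 CPM in Nilotinib, against 74.3, 84.3 and 92.6 CPM (-0.92 ± 0.17; edgeR adjusted p = 0.00864). Lhfpl3 fell by 0.97 (edgeR adjusted p = 0.0493, and at most 0.0799 without vehicle replicate 1, 5, 6, 7, 8 or 9). Sox10, which specifies the lineage, had 10.9 CPM in Nilotinib, below the 15.7 to 41.0 CPM of vehicles, and did not pass (-1.59 ± 0.49; edgeR adjusted p = 0.06), and Gpr17, a mark of precursors about to differentiate, had 18.4 CPM, within the vehicle range of 10.5 to 90.8 CPM. Of 10 tested markers of mature oligodendrocytes, 0 passed by edgeR, while 2 were lower at an unadjusted p under 0.05 and 2 by DESeq2, with Mbp at 17.2 CPM in Nilotinib, against 18.4 to 66.1 CPM in vehicles. Fibroblast markers, which share Pdgfra, summed to 414.1 CPM in Nilotinib, against 578.6 to 891.2 CPM in vehicles, and 2 of 14 fell, Pdgfra and Thy1, of which Thy1 (edgeR adjusted p = 0.0467) was lost by limma with a run-code term (adjusted p = 0.0582), against the run-code drugs (edgeR adjusted p = 0.219) and without vehicle replicate 4, 5, 6, 7 or 9 (at most 0.0772). How far other cell types moved with the precursor genes was not tested.

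Of 24 genes listed for proteins that nilotinib binds or that are related to its targets, 23 were tested, 3 rose and 2 fell against vehicles. Among all genes 6.2% rose and 6.02% fell. Abl1, its main target, had 100.4 CPM in Nilotinib, against 70.1, 76.7 and 90.2 CPM in vehicles, the highest of all libraries ahead of Leucovorin Calcium Pentahydrate at 99.2 CPM, and did not pass (0.26 ± 0.10; edgeR adjusted p = 0.116). Abl2, the other ABL kinase, had 169.3 CPM in Nilotinib, against 108.7, 116.8 and 134.2 CPM, and rose by 0.42 ± 0.12 (edgeR adjusted p = 0.0458, and at most 0.0780 without vehicle replicate 1, 3, 4, 5 or 9). Epha2, an ephrin receptor, had 4.59 CPM in Nilotinib, against 0.315, 0.937 and 1.783 CPM (2.134 ± 0.60; edgeR adjusted p = 0.0440, and at most 0.0759 without vehicle replicate 1, 4, 5, 7 or 9). Araf, a serine/threonine kinase, fell by 0.37 ± 0.11 (edgeR adjusted p = 0.0462, against 0.0752 with library totals alone and at most 0.0936 without vehicle replicate 2, 4, 5, 6, 7, 8 or 9), and Braf, of the same family, was at -0.05 ± 0.19. Kit had 67.8 CPM in Nilotinib, within the vehicle range of 58.4 to 100.2 CPM, Pdgfrb had 27.3 CPM, within 15.4 to 39.8 CPM, and Ddr1 had 257.6 CPM, within 111.5 to 258.2 CPM. Ddr2 had 12.8 CPM in Nilotinib, above the 4.142 to 10.3 CPM of vehicles, but did not pass (0.89 ± 0.37; edgeR adjusted p = 0.135). The microglial receptor Csf1r had 0.724 CPM in Nilotinib, against 0.796 to 4.55 CPM in vehicles. Among 7 ligands, Il34, which binds CSF1R, fell by 1.1547 ± 0.23 (edgeR adjusted p = 0.0131), with 5.37 CPM in Nilotinib, against 8.35 to 13.0 CPM in vehicles, but did not pass against the run-code drugs (edgeR adjusted p = 0.239) or by limma with a run-code term (adjusted p = 0.0982). The ligands Pdgfa, Pdgfb, Pdgfc, Pdgfd, Kitl and Csf1 did not pass, with log2 fold changes of -0.53 (Pdgfb) to 1.23 (Csf1).

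**Figure D5:**
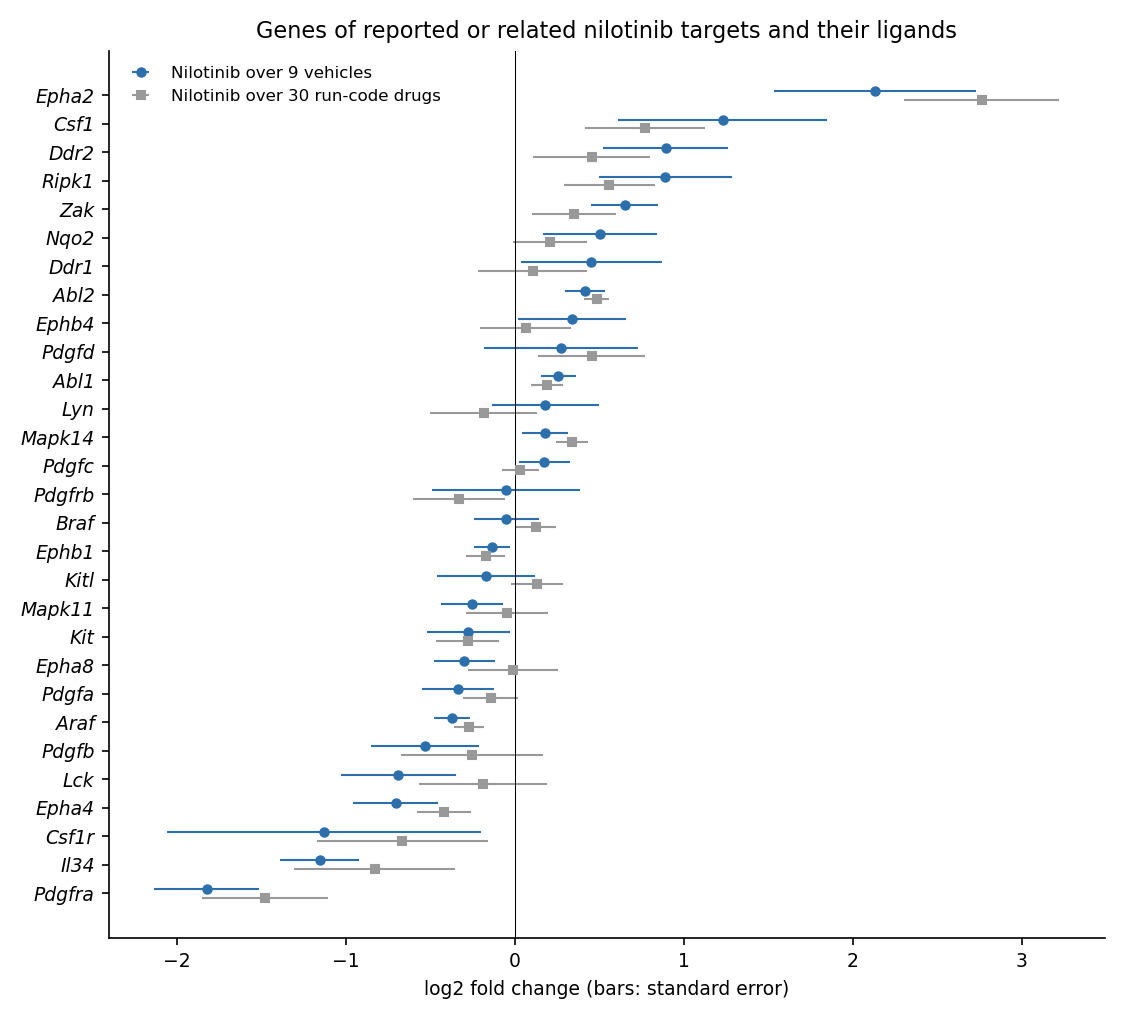
Log2 fold change with its standard error for 29 genes of reported or related nilotinib targets and their ligands, in Nilotinib over 9 vehicles (blue circles) and over 30 run-code drugs (grey squares). Epha2 lies at the top (2.134 and 2.76), Pdgfra at the bottom (-1.82 and -1.48), and most others lie within 1 unit of 0.

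Of 24 proliferation genes, which serve DNA replication and mitosis, 9 fell and 0 rose against vehicles, with a median of -0.75, and 12 fell against the run-code drugs, where 6.02% and 7.45% of all genes fell. They summed to 209.6 CPM in Nilotinib, against 264.0 to 300.8 CPM in vehicles and 258.2 to 312.4 CPM in the run-code drugs. Cdk1, the mitotic kinase, had 2.65 CPM in Nilotinib, against 4.44, 5.42 and 7.20 CPM in vehicles (-1.21 ± 0.27; edgeR adjusted p = 0.0206). Mki67, the marker of cycling cells, had 18.3 CPM in Nilotinib, against 24.6, 32.1 and 37.9 CPM (-0.91 ± 0.22; edgeR adjusted p = 0.0268), and Top2a, which untangles DNA at division, had 21.8 CPM, against 28.2, 39.9 and 41.5 CPM (-0.92 ± 0.20). The replication gene Mcm2 had 19.1 CPM in Nilotinib, within the 13.5 to 20.4 CPM of vehicles, and Pcna had 20.1 CPM, within 16.1 to 22.5 CPM. Hes5, a Notch target in progenitors, had 1.02 CPM in Nilotinib, against 4.01, 7.502 and 9.63 CPM in vehicles and 2.66 to 8.86 CPM in the run-code drugs (-2.87 ± 0.62; edgeR adjusted p = 0.0175). Hes1, another Notch target, had 5.116 CPM in Nilotinib, against 6.239 to 10.2 CPM, and did not pass (edgeR adjusted p = 0.0907).

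Neuronal receptors lay among the largest falls. Adora2a, an adenosine receptor (chromosome 10, 75316877 to 75334784), had 1.45 CPM in Nilotinib, against 11.2, 19.0 and 26.1 CPM in vehicles and 4.004 to 21.96 CPM in the run-code drugs (-3.85 ± 0.52; edgeR adjusted p = 0.00173), the lowest of all libraries. Per length it was at 0.571 RPKM in Nilotinib, against 7.68 ± 1.76 RPKM in vehicles (SD, n = 9). The histamine receptor Hrh3 had 9.23 CPM in Nilotinib, against 16.985, 26.2 and 30.4 CPM (-1.54 ± 0.29; edgeR adjusted p = 0.0106). Prokr2, a prokineticin receptor, fell by 1.67, and Gpr12, an orphan receptor, by 1.39. Sphkap, an anchor for protein kinase A, had 62.0 CPM in Nilotinib, against 123.4, 167.8 and 201.5 CPM (-1.53 ± 0.27), and the zinc transporter Slc39a10 had 41.0 CPM, against 78.7, 102.3 and 128.9 CPM (-1.45 ± 0.32). Sapcd2, Gm17322, Ipcef1, A330008L17Rik and Arhgap25 complete the 15 largest falls, at -1.80, -1.79, -1.47, -1.59 and -1.76, and Arhgap25 did not pass without vehicle replicate 5, 6, 7, 8 or 9 (edgeR adjusted p at most 0.0746).

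Of 21 synaptic vesicle genes, 6 fell against vehicles and 4 against the run-code drugs, where 6.02% and 7.45% of all genes fell, with medians of -0.71 and -0.45. Of 22 glutamate receptor genes 7 and 5 fell, of 12 GABA-A receptor genes 6 and 3, and of 29 voltage-gated channel genes 6 and 3. On these 4 lists 0 members rose in either comparison by edgeR, and against vehicles also 0 at an unadjusted p under 0.05 and 0 by DESeq2. The counts of falls rested on single vehicles. Among the synaptic vesicle genes, 2 fell without vehicle replicate 6 or 7, 3 without replicate 5 or 9, 10 without replicate 1 or 3 and 12 without replicate 2. Among the channels, 3 fell without replicate 5, 11 without replicate 3 and 12 without replicate 2, and 3 GABA-A receptor genes fell without replicate 5. The vesicle protein Sv2b had 145.8 CPM in Nilotinib, against 284.7, 406.3 and 482.8 CPM in vehicles, but lay within the 137.6 to 506.4 CPM of the run-code drugs (-1.54 ± 0.33 over vehicles; edgeR adjusted p = 0.0161, and 0.110 over the run-code drugs). Grin3a, an NMDA receptor subunit, had 41.4 CPM in Nilotinib, against 53.3, 61.4 and 70.5 CPM in vehicles and 48.2 to 71.9 CPM in the run-code drugs, below both (-0.70 ± 0.14; edgeR adjusted p = 0.0124). Gabrb2, a GABA-A receptor subunit, had 109.9 CPM in Nilotinib, against 158.1, 191.5 and 213.1 CPM in vehicles and 126.7 to 212.0 CPM in the run-code drugs (-0.87 ± 0.18; edgeR adjusted p = 0.0157). Scn4b, a sodium channel subunit, had 4.64 CPM in Nilotinib, against 12.7, 19.1 and 27.9 CPM in vehicles (-2.18 ± 0.42; edgeR adjusted p = 0.0108), but did not pass by limma with a run-code term (adjusted p = 0.129) or against the run-code drugs (edgeR adjusted p = 0.0792). General neuron markers were also lower, with medians of -0.61 against vehicles and -0.40 against the run-code drugs. Of these 12 markers, 2 and 1 fell, beside the same 6.02% and 7.45% of all genes. They summed to 4451 CPM in Nilotinib, below the 5382 to 7191 CPM of vehicles and within the 4263 to 6497 CPM of the run-code drugs. Fewer neurons and less RNA per neuron cannot be told apart here. Excitatory neuron markers summed to 1150 CPM in Nilotinib, below the 1547 to 2689 CPM of vehicles and within the 999.8 to 2489 CPM of the run-code drugs. Inhibitory neuron markers summed to 3147.1 CPM in Nilotinib, within the vehicle range of 2413 to 4437 CPM, and 2 of 15 rose, the developmental factors Dlx2 (1.08 ± 0.21) and Dlx5 (0.98 ± 0.22), while Vip fell by 1.33 (edgeR adjusted p = 0.0467). The call for Vip was lost by limma with a run-code term (adjusted p = 0.407), against the run-code drugs (edgeR adjusted p = 0.467) and without vehicle replicate 4, 5, 6, 7 or 9 (at most 0.0778). Gad1, which makes GABA, had 648.0 CPM in Nilotinib, within 515.4 to 830.6 CPM.

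Lipid and oxygen-related lists passed rarely despite medians below 0. Of 24 cholesterol synthesis genes, 0 passed in either comparison by edgeR (against vehicles 5 were lower at an unadjusted p under 0.05 and 4 by DESeq2), with medians of -0.66 against vehicles and -0.20 against the run-code drugs. Hmgcs1, an early enzyme of the pathway, had 257.5 CPM in Nilotinib, against 317.3, 472.3 and 1060.0 CPM in vehicles, which spread widely, and 228.9 to 660.7 CPM in the run-code drugs. Of 23 hypoxia and glycolysis genes, 1 fell by edgeR, Ankrd37 (-1.10 ± 0.30; edgeR adjusted p = 0.0411), and 7 fell by DESeq2, with medians of -0.91 and -0.37. Ankrd37 did not pass by limma with a run-code term (adjusted p = 0.526), against the run-code drugs (edgeR adjusted p = 0.452) or without vehicle replicate 1, 5, 6, 7, 8 or 9 (at most 0.0697). Of 23 NRF2 targets, 1 rose and 1 fell against vehicles, and 0 rose and 2 fell against the run-code drugs. The haem oxygenase Hmox1 rose, with 237.9 CPM in Nilotinib, against 50.9, 62.4 and 140.3 CPM in vehicles (1.48 ± 0.40; edgeR adjusted p = 0.0398), which was lost by limma with a run-code term (adjusted p = 0.173), against the run-code drugs (edgeR adjusted p = 0.0834) and without vehicle replicate 4, 5, 7, 8 or 9 (at most 0.0647). The transketolase Tkt fell by 0.53 (edgeR adjusted p = 0.0365, and at most 0.0713 without vehicle replicate 5, 6, 7 or 9), while Nqo1 at 3.119 CPM lay within the vehicle range of 1.74 to 3.24 CPM. Of 17 histone and chromatin modifier genes, 5 rose against vehicles and 7 against the run-code drugs, led by the histone demethylase Kdm6b with 195.1 CPM in Nilotinib, against 64.6, 78.5 and 100.8 CPM in vehicles (1.21 ± 0.21; edgeR adjusted p = 0.00757).

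The Nilotinib and Fenofibrate libraries were also compared directly. They came from different run codes, so what the drug and what the run code contributes cannot be told apart, and the spread was that of the vehicles. Of 15591 genes tested, 850 (5.45%) differed, 496 higher in Nilotinib (3.18%) and 354 lower (2.3%). On the NF-kB list, 7 of 16 were higher in Nilotinib and 0 lower, with a median of 2.23. The vehicles alone would have kept 8 of the 16 members tested against vehicles. This count and median are therefore no support for a shift of the list. Ccl2 had 40.4 CPM in Nilotinib and 0.251 CPM in Fenofibrate (7.25 ± 1.108; edgeR adjusted p = 0.00746), and Nfkbia 60.4 CPM in Nilotinib and 20.3 CPM in Fenofibrate (1.514 ± 0.24; edgeR adjusted p = 0.00817). On the ATF4 list, 1 of 37 was higher and 1 lower. The lower one was Ppp1r15a, with 88.5 CPM in Nilotinib and 254.5 CPM in Fenofibrate (-1.59 ± 0.28; edgeR adjusted p = 0.0123). For Chac1, with 75.5 CPM in Nilotinib and 51.9 CPM in Fenofibrate, and for Jun, with 545.8 CPM in Nilotinib and 468.5 CPM in Fenofibrate, the difference did not pass. Of the 10 precursor markers 4 were lower in Nilotinib, with Pdgfra at 48.0 CPM in Nilotinib and 197.1 CPM in Fenofibrate (-2.1002 ± 0.37; edgeR adjusted p = 0.0124), as were 8 of 24 proliferation genes. Fenofibrate itself lay above every vehicle for Pdgfra (vehicles at most 191.0 CPM). The same held for summed precursor markers (868.6 against at most 771.9 CPM) and summed proliferation genes (355.5 against at most 300.8 CPM). Nilotinib lay below every vehicle for all of these. Hes5 was low in both, at 1.02 CPM in Nilotinib and 0.953 CPM in Fenofibrate.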

How the data were processed

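RNA from mouse cerebrocortical cultures was sequenced with 1 library per drug and 9 vehicle libraries. Per the labels, libraries were made with a stranded mRNA kit, and whether the counting used strand is not given in the sources used here. The authors deposited a table of read counts per gene and a table of RPKM values per gene. The build mm10 and the tools edgeR 3.10.5, limma, Subread 1.4.6 and STAR 2.4.0 are named, without roles, per the submitters' processing notes. The deposited RPKM values equalled the count divided by gene length and column total, within a ratio of 0.999 to 1. RPKM values were used only to describe levels per length.

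The deposited counts were tested with edgeR 4.0.16 in R 4.3.3 (filterByExpr with a minimum count of 10, TMM factors, quasi-likelihood test, Benjamini-Hochberg adjustment over all genes tested, threshold 0.05). Fold changes are Nilotinib over its comparison libraries. The Fenofibrate contrast used a fit of both drugs with the 9 vehicles. The filter asked for 1 library at its level (0.26 CPM). Applied to the vehicles alone, where it asks for all 9 libraries, it would have removed 1698 of the genes tested against vehicles. Of these, 47 rose and 7 fell. Among the tested genes, 75 reached the level in Nilotinib only, of which 17 rose. At an unadjusted p under 0.05, 4675 genes differed from vehicles. No pair among the Nilotinib and vehicle libraries matched within sampling noise (lowest chi-square per gene 10.5 over 45 pairs). The test code was tested on simulated data.

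Members, the 45 gene lists (783 of 784 genes found) and tests were chosen with earlier results of these data known. Named genes are, among those past the threshold in both comparisons, the 15 with the largest increase and the 15 with the largest decrease, with at least 1 CPM and with Nilotinib outside both ranges, all tested kinase and ligand genes, and up to 6 passing members per list. Members named beyond that rule, and defining members that did not pass, were chosen after their values were seen. Alternatives were RLE factors, library totals alone, no filter, DESeq2 1.42.0, limma 3.58.1 (voom) with a term for run code, other sets of run-code libraries, and leaving out each vehicle. The limma fit held all libraries, so its Nilotinib term is the difference from the other libraries of the run code. A few items are not reported here. Columns of other drugs entered through places in the order of all libraries and the limma alternative.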

Additional observations from a re-analysis of the deposited data

Results flagged for a closer look

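The 9 vehicle values of 85 genes were screened for a library whose gap to its nearest neighbour was large against the whole range (Dixon's 95% critical value), which by chance occurs in about 1 in 20 groups, and 14 genes met it. Of these, 7 had their high value in vehicle replicate 1: Ccl2 (1.05 CPM), Cxcl2 (0.478 CPM), Cxcl10 (3.471 CPM), Mmp3 (0.510 CPM), Csf1r (4.55 CPM), C1qa (5.51 CPM) and Cx3cr1 (5.1271 CPM). The first 4 were far higher in Nilotinib (40.4, 3.993, 42.1 and 1.971 CPM), and the last 3, markers of microglia, were lower there (0.724, 0.699 and 0.299 CPM). In vehicle replicate 3, Trib3 (13.8 CPM), Gadd45a (9.22 CPM), Fosl1 (2.826 CPM) and Hes1 (10.2 CPM) stood high and Top2a (28.2 CPM) low. Pcna was low in vehicle replicate 7 (16.1 CPM), and Tnf was high in vehicle replicate 4 (0.129 CPM). What sets these vehicles apart was not tested.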

How the results depend on the processing

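Nilotinib has 1 library, so its own spread was not measured, and against vehicles its drug and its run code cannot be told apart. No paired analysis was possible because the Nilotinib group has 1 library and shares fewer than 2 replicate numbers with the vehicles. Low counts limit genes under about 1 CPM.

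Against vehicles, 1891 genes passed in the edgeR test, 3225 by DESeq2 (1310 higher and 1915 lower), 1771 with RLE factors, 1871 with library totals alone (1251 higher and 620 lower) and 1309 with no filter. Limma with a run-code term, which sets Nilotinib against the other libraries of its run code and not against the vehicles, gave 3443. Leaving out single vehicles gave 1046 (without replicate 5) to 2188 (without replicate 3), with 1163 without replicate 9, and 954 higher and 367 lower without replicate 6. Of the 1891 genes, 55.3% passed without replicate 5 and 97.8% by DESeq2. Against the run-code drugs, 3039 genes passed, and alternatives gave 2556 (no filter) to 3847 (without 4 drugs that had calls of their own), with 2341 higher and 441 lower by library totals alone. Of the 3039 genes, 60.6% passed against the drug libraries of the same lane alone, and 99.3% without the 4 drugs. Against Fenofibrate, 850 passed and 1946 by DESeq2. Among activity-regulated transcription factors 8 rose by library totals alone, 8 by DESeq2 and 14 by limma. DESeq2 gave 17 falls among proliferation genes, 16 among synaptic vesicle genes (limma 12), 12 among glutamate receptors and 13 among voltage-gated channels. Leaving out 1 vehicle gave 2 to 12 synaptic vesicle falls, 3 to 7 GABA-A falls and 3 to 12 channel falls. NF-kB rises ranged from 12 to 14, ATF4 rises from 17 to 22, and precursor falls from 3 to 5 under the same omission. The NF-kB counts include members that the vehicles alone would not have kept, so their range is no check on a shift of that list. Signs turned only for genes that did not pass. The log2 fold change of Pdgfrb was 0.0364 with library totals alone, 0.0443 against the run code's vehicle and -0.119 to 0.0411 without single vehicles. The log2 fold change of Braf was 0.0494, 0.04995 and -0.0725 to 0.0341 in the same order, and 0.122 by limma. Lyn (-0.134) and Kitl (0.123) turned by limma, and Pdgfd (-0.0862) against the run code's vehicle. All 177 named genes past the threshold kept their sign against the run code's vehicle, which is 1 of the 9 vehicles of the fit that called them. The 15 largest increases and 15 largest decreases lie outside the range of all 9 by the naming rule, so their sign could not turn. The kept signs are therefore no separate check. The cause of these shifts was not tested.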

Other observations

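Gene families were counted by the start of their symbol, after values had been seen. Of 345 zinc finger genes with Zfp symbols, which encode mostly DNA-binding repressors, 48 rose (13.9%) and 2 fell against vehicles, where 6.2% of all genes rose, with a median log2 fold change of 0.17. With RLE factors 50 rose and 2 fell, and with library totals alone 67 rose and 1 fell. Against the run-code drugs, 94 of 343 rose and 6 fell, where 11.8% of all genes rose. Of 76 potassium channel genes (Kcn), 12 fell and 3 rose against vehicles, where 6.02% of all genes fell, and with library totals alone 10 fell and 4 rose. Within the run code, 3 of 75 fell and 5 rose, where 7.45% of all genes fell. Of 12 tubulin genes, whose products build microtubules, 5 fell against vehicles (4 with library totals alone) and 3 fell against the run-code drugs. The shares of all genes that fell were 6.02% and 7.45%. Of 36 kinesin genes, which encode microtubule motors, 6 fell against vehicles and 12 against the run-code drugs, beside the same 6.02% and 7.45% of all genes.

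Further lists had few members past the threshold. Among 30 lysosome genes 1 rose and 1 fell, and among 26 autophagy genes 1 rose and 1 fell. Of 18 circadian clock genes 1 rose against vehicles and 6 against the run-code drugs. Of 15 fatty acid synthesis genes 0 passed by edgeR, with 3 lower at an unadjusted p under 0.05 and 1 by DESeq2. Of 7 mitochondrial genome transcripts 0 passed, with 0 at an unadjusted p under 0.05 and 0 by DESeq2.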
